A study of Gallus gallus with 6 samples.

Results

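HDAC2, EPC1 and HAT1 are 3 genes of histone acetylation whose neighbourhoods carried methylated lysine 4 of histone H3 (H3K4) in a chromatin immunoprecipitation sequencing (ChIP-seq) study of chicken cells. Their regions were all those that the authors' tables tie to one of these genes by the closest transcription start. There were 26 such entries among 15464 distinct region entries in 3 tables, and they fall on 13 places in the genome, 7 for HDAC2, 5 for EPC1 and 1 for HAT1. The genes were selected on the ratios of H3K4 methylation signal between populations in these tables, so the values below are descriptions and no test was made on them.

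Acetylation of lysines in histone tails loosens chromatin and recruits bromodomain proteins, and it is set by acetyltransferases and removed by deacetylases. HDAC2 encodes a class I deacetylase that is a catalytic subunit of the SIN3, NuRD and CoREST corepressor complexes. EPC1 encodes a scaffold subunit of the NuA4 (TIP60) acetyltransferase complex, named after the Drosophila gene Enhancer of Polycomb. HAT1 encodes an acetyltransferase that marks newly made histone H4 before it is placed on DNA. These roles are known mostly from human and yeast proteins. Methylated H3K4 itself marks promoters and enhancers, with trimethylation concentrated at active starts and dimethylation spread over promoters and enhancers.

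The labels name no engineered allele and no experimental agent for any of the populations. Embryonic stem cells (ESC) were blastoderm cells of stage X eggs, kept for 24 h in serum medium with LIF, bFGF and SCF and then enriched by differential purification. Primordial germ cells (PGC) were taken from genital ridges by trypsin and EDTA digestion and enriched by a short differential culture in serum medium. Incubation was 4.5 d by the growth protocol, although the samples are labelled 72 h (stage 27). Spermatogonial stem cells (SSC) were isolated from embryonic testes by collagenase and trypsin digestion and kept in serum medium; the growth protocol has 18.5 d and the sample label 18 d. The labels name no sort by surface marker and do not say how many embryos went into a library. The antibody recognises di- and trimethylated H3K4, although the series title names the dimethyl mark alone.

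Each population had 1 immunoprecipitated (IP) library and 1 input library, of 19.15 to 26.03 M reads. With 1 library a group, every difference below compares libraries, not conditions, and the 95% intervals cover counting error only. A region's enrichment is the ratio of IP to input reads per M in the same population, with 1 read added to each count as the authors did. Every listed region had an enrichment above 1 in both populations of its table, so a ratio between populations cannot exceed the enrichment of the higher one. Few markers of germ cells or spermatogonia had a listed region, and fewer had a peak in PGC or SSC. These are counts of genes, with no share over all genes beside them. Of all regions in ESC against PGC, 42.6% were PGC peaks, and 2635 of the 5840 in ESC against SSC were SSC peaks. The listed germ cell and spermatogonial markers are too few to be set against these shares. Of 7 germ cell markers, 2 had a listed region and 0 had a peak called in PGC, while 1 (TDRD7) had one in SSC and both had one in ESC. Of 5 spermatogonial markers, 1 was listed and 0 had a peak in SSC, while 8 of 10 somatic gonad markers had a peak in SSC. Of these 8, 2 (GATA4 and NR2F2) also had a peak in ESC and in PGC. All 3 listed stem cell markers (of 7) had a peak in ESC, and 2 of them also in PGC and in SSC. The marker lists were chosen with earlier results of these data known, so these counts are descriptions only. H3K4 methylation is no direct measure of expression, so a region or its absence is no proof of a label. The part of cell mixture in the values below was not tested.

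Signal at the 3 genes was highest in ESC. In the tables of ESC against PGC and ESC against SSC, each gene group held the same number of regions, 5 for HDAC2, 5 for EPC1 and 1 for HAT1, and all 11 were called as peaks in ESC, beside 57.8% and 61.7% of all regions. None of the 11 was called in PGC, beside 42.6% of all regions. The 4801 regions held 2774 ESC peaks and 2043 PGC peaks, so an ESC peak was seldom also a PGC peak. The absence of PGC calls therefore follows largely from the ESC call. Of the 11, 2 were called in both ESC and SSC, beside 6.80% of all regions and 397 of the 3602 ESC peaks in the table against SSC. Enrichment was at least 2-fold higher in ESC than in PGC at 9 of 11 regions, beside 48.4% of all 4801 regions and 83.2% of the 2774 ESC peaks in that table. None was 2-fold higher in PGC, beside 23.5%. Enrichment was at least 2-fold higher in ESC than in SSC at 7 of 11, beside 35.1% of all 5840 regions and 56.3% of the 3602 ESC peaks. None was 2-fold higher in SSC, beside 26.3%. Few ESC peaks were 2-fold higher in PGC or in SSC, so the absence of such regions here follows largely from the ESC call. The median log2 ratio over the 11 regions was 1.78 against PGC and 1.16 against SSC. All ESC peaks had medians of 1.88 and 1.15, so by their ratios the regions were close to the middle of the ESC peaks.

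**Figure D1:**
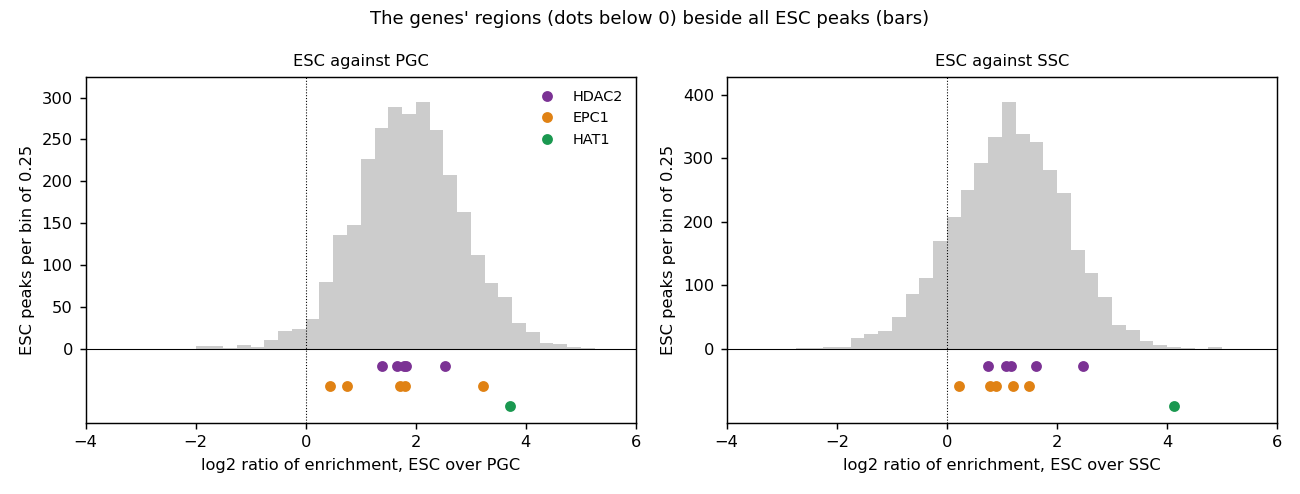
Distribution of the log2 ratio of enrichment over all ESC peaks (grey bars, regions per bin of 0.25) in ESC against PGC (left) and ESC against SSC (right), with the regions of HDAC2, EPC1 and HAT1 as dots below the axis. Most HDAC2 and EPC1 dots lie within the bulk of the ESC peaks, and HAT1 lies in the right tail at 3.71 and 4.12. Both HAT1 values rest on an ESC input of 0 reads.

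HDAC2 (ENSGALG00000014991; chromosome 3, 64239389 to 64261685, plus strand, galGal4) had a pair of neighbouring regions at its start, 54 bp apart. The first of them (64239404 to 64240028) reached from the 5' UTR into intron 1, with its middle 327 bp past the start. Its IP and input counts were 59 and 4 for ESC, 12 and 5 for PGC, and 19 and 5 for SSC. Enrichment was 9.20 (95% counting interval 3.69 to 22.9) in ESC, 4.12 (1.66 to 10.3) in SSC and 2.67 (1.02 to 7.04) in PGC, with the inputs nearly equal. The log2 ratio was 1.78 (-0.14 to 3.70) for ESC over PGC and 1.16 (-0.70 to 3.02) for ESC over SSC, so neither difference exceeded counting error by the ratio of enrichments. By IP reads alone, the log2 ratios were 1.84 (0.98 to 2.71) and 1.14 (0.41 to 1.87), and both intervals left out 0.

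The second start region of HDAC2 (64240082 to 64240501, intron 1, 902 bp past the start) had IP and input counts of 38 and 7 for ESC, 11 and 13 for PGC, and 12 and 8 for SSC. Enrichment was 3.74 (1.75 to 7.998) in ESC, compared with 1.06 in PGC and 1.79 in SSC, whose counting intervals include 1. The ratio of ESC over PGC was 1.82 (0.26 to 3.38) on the log2 scale, and that of ESC over SSC was 1.07 (-0.58 to 2.71). With the reads of both start regions summed over 1043 bp, a grouping made after the values were seen, ESC over PGC was 2.01 (0.78 to 3.23), or 1.11 (-0.12 to 2.33) after centring on the median of all regions, and ESC over SSC 1.15 (-0.11 to 2.40). PGC and SSC could not be separated there, at -0.86 (-2.11 to 0.40) for PGC over SSC.

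More ESC IP reads lay far beyond HDAC2 (257 over 2145 bp) than at its start (97 over 1043 bp). A cluster of 3 regions spanned 3718 bp (64306670 to 64310388), beginning 44985 bp past the end of HDAC2. HDAC2 is tied to it only as the closest start in the authors' annotation. In the gene order of RefSeq's assembly GRCg7b, a different build, the next protein-coding gene on that side is MARCKS, and no listed region carried that symbol. On the other side the next is the sulfotransferase gene HS3ST5.

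The farthest region of the cluster (64309569 to 64310388 in the table against PGC, middle 70589 bp from the start) had the highest ESC enrichment and IP count of the HDAC2 regions. Counts were 106 IP and 6 input for ESC against 27 and 16 for PGC, an enrichment of 11.7 (5.46 to 25.2) and 2.03 (1.11 to 3.71). In the table against SSC the region began at 64309533 and was called in both populations, with 107 and 6 reads for ESC and 42 and 24 for SSC, where enrichment was 2.13 (1.30 to 3.48). The log2 ratio was 2.53 (1.12 to 3.93) for ESC over PGC and 2.48 (1.16 to 3.79) for ESC over SSC. The inputs differed as well, at 0.352 reads per M per kb in ESC and 1.19 in SSC over the same interval. Without inputs the ratio of ESC over SSC was 0.89 (0.38 to 1.40), and that of ESC over PGC 1.57.

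The other distal regions of HDAC2 had higher ESC inputs. The region at 67654 bp (64306670 to 64307417) had IP and input counts of 65 and 13 for ESC, 18 and 16 for PGC, and 27 and 15 for SSC, with 3 summits of the authors' peak caller. The region at 68514 bp (64307614 to 64308193) had 86 and 14 for ESC, 15 and 13 for PGC, and 20 and 17 for SSC. PGC enrichment was 1.38 and 1.41 at these places, while ESC had 3.61 and 4.45. The log2 ratios of ESC over PGC were 1.39 (0.13 to 2.65) and 1.66 (0.35 to 2.96). Those of ESC over SSC were 0.74 (-0.48 to 1.96) and 1.62 (0.42 to 2.83).

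Summed over the 3 distal regions, ESC had 257 IP and 33 input reads over 2145 bp against 60 and 45 for PGC, for a log2 ratio of 1.83 (1.07 to 2.59). Over the 2181 bp of the table against SSC, the counts were 258 and 33 for ESC against 89 and 56 for SSC, for 1.58 (0.88 to 2.28). Both intervals leave out 0, also after centring, at 0.93 (0.18 to 1.69) and 1.27 (0.57 to 1.97). Summed ESC enrichment at the start and in the distal cluster had overlapping intervals, at 6.26 (3.44 to 11.4) and 5.82 (4.07 to 8.32).

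**Figure D2:**
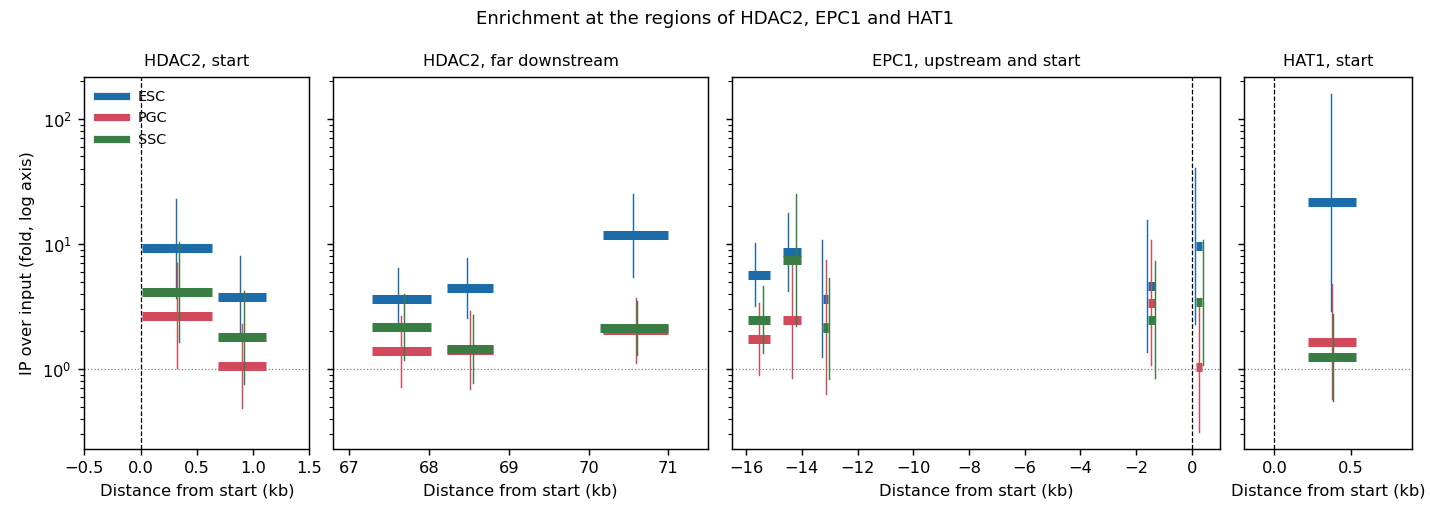
Enrichment of IP over input (fold, log axis) against distance from the transcription start (kb; dashed line at the start) for regions of HDAC2, EPC1 and HAT1. Thick bars show each region to scale in ESC, PGC and SSC, and thin lines show 95% counting intervals, drawn slightly apart for legibility. The ESC bar is the highest of the 3 at every region drawn, and the ESC bar of the farthest HDAC2 region stands at 11.7.

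EPC1 (ENSGALG00000007169; chromosome 2, 14056886 to 14098892, plus strand) had a narrow region at its start, with the highest ESC enrichment of its 5 regions, and 4 regions upstream. The start region (14057031 to 14057254, from the 5' UTR into exon 1) had IP and input counts of 24 and 1 for ESC, 4 and 5 for PGC, and 10 and 3 for SSC. PGC enrichment was 1.03 (0.31 to 3.37) there, against 9.58 (2.27 to 40.5) in ESC and 3.40 (1.08 to 10.7) in SSC. The log2 ratio was 3.22 (0.53 to 5.91) for ESC over PGC, and by IP reads alone 1.96 (0.57 to 3.34). For ESC over SSC it was 1.49 (-1.16 to 4.15), and by IP reads alone 0.74 (-0.28 to 1.76), so a difference from SSC was not detectable at this depth. A second region at -1460 bp, upstream of the start (14055304 to 14055547), had 17 and 2 for ESC, 10 and 3 for PGC, and 9 and 4 for SSC. ESC was only slightly the highest, with log2 ratios of 0.44 (-1.98 to 2.85) for ESC over PGC and 0.90 (-1.45 to 3.24) for ESC over SSC.

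A cluster of 3 regions lay upstream of EPC1, spanning 2891 bp (14040947 to 14043838) and ending 13048 bp before the annotated start. The farthest one (14040947 to 14041758, at -15533 bp) had IP and input counts of 95 and 12 for ESC, 20 and 14 for PGC, and 29 and 14 for SSC, and was called as a peak in ESC and in SSC. Its log2 ratio was 1.71 (0.44 to 2.98) for ESC over PGC and 1.19 (-0.03 to 2.42) for ESC over SSC. The next (14042199 to 14042849, at -14362 bp) had 89 and 7 for ESC, 9 and 4 for PGC, and 17 and 2 for SSC. Its ratio of ESC over SSC depended on the inputs, at 0.22 (-1.83 to 2.27) with them and 1.88 (1.15 to 2.61) by IP reads alone, the SSC input holding 2 reads. Over PGC it was 1.805 (-0.06 to 3.67) with inputs and 2.81 (1.86 to 3.75) without. The region nearest the gene, at -13148 bp and 200 bp wide, the smallest width listed, had 18 and 3 for ESC, 6 and 3 for PGC, and 11 and 6 for SSC. Its log2 ratios were 0.75 (-1.60 to 3.11) over PGC and 0.78 (-1.28 to 2.84) over SSC.

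Summed over the 3 upstream regions (1661 bp), the counts were 202 and 22 for ESC, 35 and 21 for PGC, and 57 and 22 for SSC. The log2 ratio was 1.74 (0.76 to 2.73) for ESC over PGC and 1.12 (0.18 to 2.05) for ESC over SSC. Both intervals leave out 0, but not after centring on the median of all regions, which gave 0.85 (-0.14 to 1.83) and 0.81 (-0.13 to 1.74). PGC over SSC was -0.63 (-1.66 to 0.41), or -0.77 (-1.37 to -0.17) by IP reads alone. Summed ESC enrichment was 6.77 (4.40 to 10.4) in the distal cluster and 8.05 (2.89 to 22.5) over the start region and the one at -1460 bp, with overlapping intervals. The genes next to EPC1 had regions of their own. The closest on the upstream side lay at ITGB1, an integrin gene, 80229 bp before EPC1, and the closest on the other side at KIF5B, a kinesin gene, 35627 bp past its end, in both ESC tables.

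HAT1 (ENSGALG00000009525; chromosome 7, 17393716 to 17411970, minus strand) had 1 region, in intron 1 and 376 bp from the start (17411437 to 17411750). Its IP and input counts were 27 and 0 for ESC, 7 and 5 for PGC, and 11 and 11 for SSC. The SSC counts were equal, and enrichment was 1.24 (0.56 to 2.75) in SSC and 1.65 (0.57 to 4.74) in PGC. With the ESC input set to 3 counts for this region, ESC enrichment was 4.35-fold higher than in PGC and 5.79-fold higher than in SSC. The log2 ratios as deposited were 3.71 (0.45 to 6.96) and 4.12 (1.02 to 7.22), both resting on the ESC input of 0 reads. By IP reads alone they were 1.44 (0.31 to 2.58) and 0.78 (-0.20 to 1.76), so the large ratio over SSC came with unequal inputs. The lower end of the interval with the input at 3 counts was -0.18 against PGC and 0.46 against SSC.

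**Figure D3:**
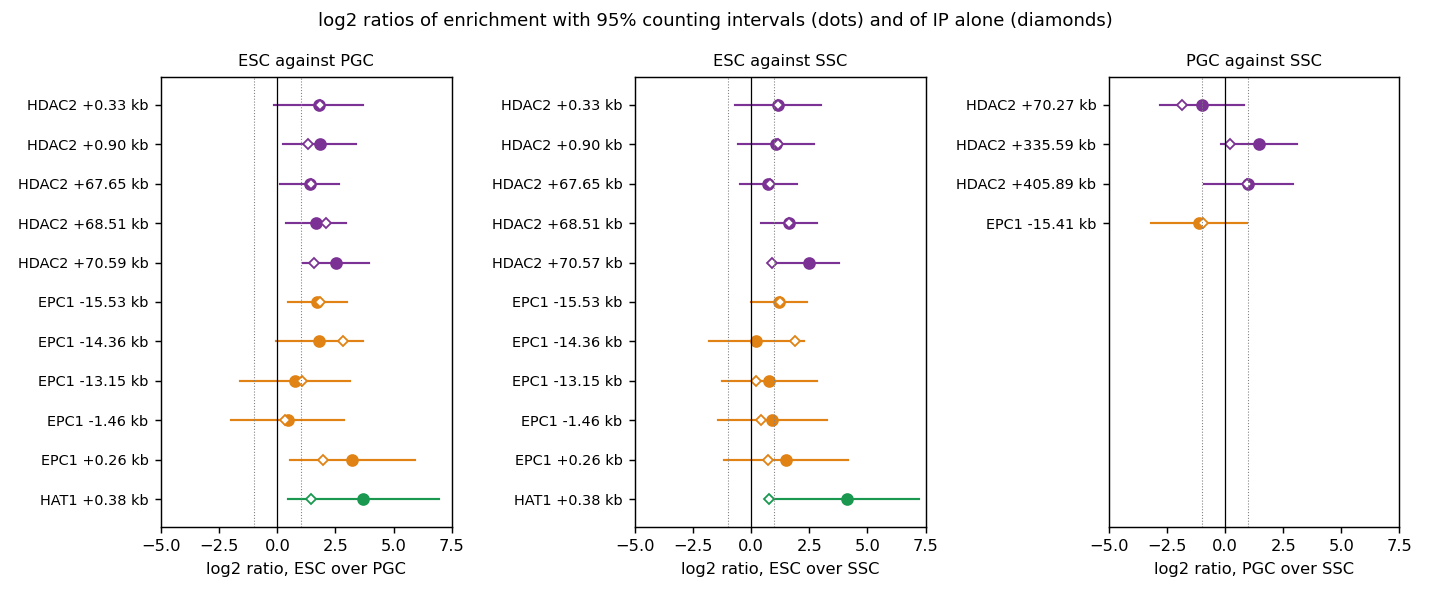
log2 ratios of enrichment (dots) with 95% counting intervals (lines) and of IP reads alone (diamonds) for every region of HDAC2 (purple), EPC1 (orange) and HAT1 (green) in the 3 comparisons, labelled by distance from the start; dotted lines mark 2-fold. Dots lie right of 0 at all 11 regions in both ESC comparisons, and the diamond of HAT1 in ESC against SSC lies at 0.78, far left of its dot at 4.12.

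By counting error, the ESC over PGC interval left out 0 at 7 of 11 regions, 4 of HDAC2, 2 of EPC1 and the 1 of HAT1, beside 23.7% of all regions and 41.1% of the ESC peaks in that table. After centring on the median of all regions, it did so at 1 of 11, the HDAC2 region at 70589 bp. The ESC over SSC interval did so at 3 of 11, namely the regions of HDAC2 at 68514 and 70571 bp and that of HAT1, beside 12.1% of all regions and 19.6% of the ESC peaks, and the number was again 3 after centring. The shares given here are uncentred. No centred share over all regions was computed, so the centred counts cannot be set against one. By IP reads alone, ESC was at least 2-fold above PGC at 10 of 11 regions, beside 52.0% of all regions and 90.0% of the ESC peaks. It was so above SSC at 5 of 11, beside 40.9% and 66.4%. Both HDAC2 and EPC1 had 5 regions in each ESC table. Among genes with a symbol, 12 of 2269 (0.529%) had 5 or more in the table against PGC and 28 of 2592 (1.08%) in the table against SSC, with up to 15 for 1 gene.

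Levels can be set beside each other per length. At the 10 regions with identical ends in both ESC tables, ESC IP density ran from 2.69 (EPC1 at -1460 bp) to 5.71 reads per M per kb (HDAC2, 68514 bp). HAT1 was within this range at 3.31, close to the HDAC2 start regions at 3.63 and 3.48 and below the EPC1 start region at 4.13. The density of IP reads ran from 0.68 to 2.03 in PGC and from 1.37 to 2.87 in SSC, so every ESC IP value but that of the EPC1 region at -1460 bp lay above the whole range of both. Inputs ran from 0 (HAT1) to 1.21 in ESC, from 0.25 to 1.24 in PGC and from 0.13 to 1.48 in SSC. Of the 10 regions, HAT1 had the second-lowest ESC IP density, the lowest ESC input and the highest SSC input.

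**Figure D4:**
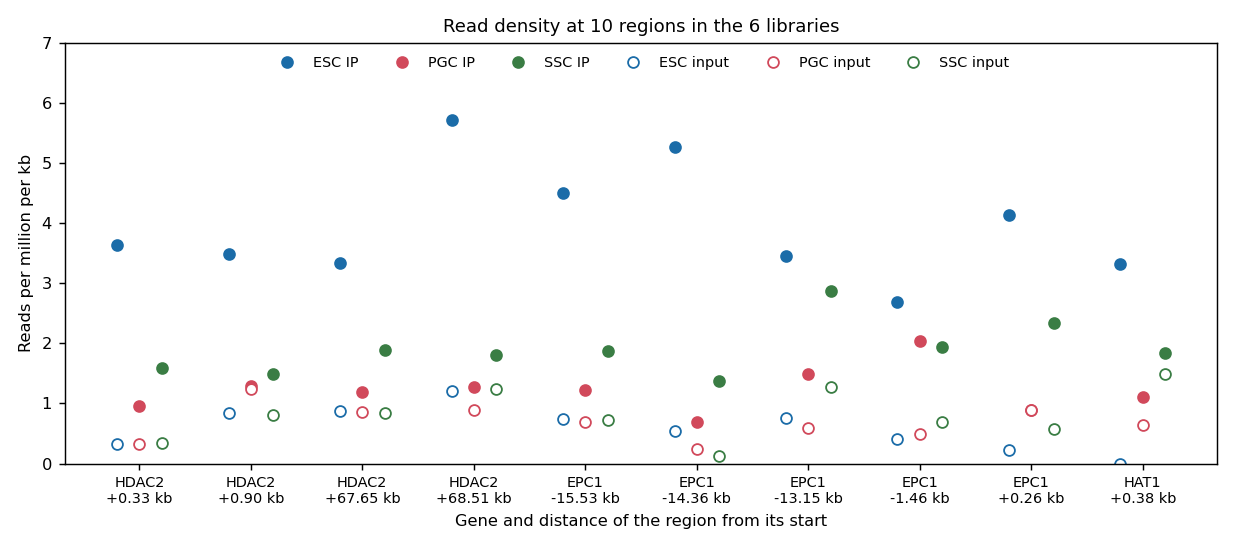
Read density (reads per M per kb) of the 6 libraries at the 10 regions of HDAC2, EPC1 and HAT1 with identical ends in both ESC tables; filled circles are IP and open circles input libraries. ESC IP (filled blue) is the highest value at each region, from 2.69 to 5.71, and the HAT1 ESC input lies at 0.

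The order of the populations was the same at most regions. By enrichment, 7 of the 10 ran ESC, SSC, PGC from high to low and 3 ran ESC, PGC, SSC; by IP reads per M, 9 of 10 followed the first order. Among all 2384 intervals shared by the ESC tables, all of them ESC peaks, the shares with the first order were 65.9% and 80.1%. These regions were called in ESC, so the top place of ESC is no independent result. Region by region, SSC and PGC differed by less than counting error: the log2 ratio of PGC over SSC computed on these intervals ran from -1.73 (-4.10 to 0.65, EPC1 start) to 0.46 (-1.81 to 2.72, EPC1 at -1460 bp). Its interval left out 0 at 0 of 10 regions, with or without inputs.

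The table of PGC against SSC held 4 regions of these genes, 3 of HDAC2 and 1 of EPC1, and none of HAT1. Of these, 1 was at least 2-fold higher in PGC and 2 in SSC, beside 21.2% and 37.8% of all 4823 regions. Before centring, 0 of 4 intervals left out 0. Over all regions, 1.87% had an interval above 0, and 9.58% had SSC 2-fold higher and an interval below 0. After centring, 1 of 4 left out 0, the PGC peak at 335591 bp, with no centred share over all regions computed. The SSC peaks were narrow segments of distal regions listed in ESC against SSC. For HDAC2, the SSC peak (64309533 to 64309778) had 23 IP and 11 input reads for SSC and 6 and 6 for PGC, a log2 ratio of -1.003 (-2.81 to 0.81) for PGC over SSC. By IP reads alone it was -1.86 (-3.07 to -0.64), while the SSC input was also the higher. The segment was called as a peak in SSC and not in PGC, so the higher SSC IP level there follows largely from the call. For EPC1, the SSC peak (14041368 to 14041579) had 12 and 5 for SSC and 6 and 6 for PGC, a ratio of -1.12 (-3.18 to 0.94). The PGC peaks assigned to HDAC2 lay 335591 and 405894 bp from its start (64574870 to 64575090 and 64645183 to 64645383). The nearer had 16 and 6 reads for PGC and 13 and 15 for SSC, and the farther 17 and 6 against 8 and 6. Their log2 ratios of PGC over SSC were 1.47 (-0.17 to 3.11) and 0.997 (-0.90 to 2.90), the latter just under 2-fold.

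Genes with the most similar ratios, among those with a region within 1 kb of their start in each table, were found by the Euclidean distance between log2 ratios over the tables in which each gene is listed. For HAT1, over the 2 ESC tables and 1038 candidate genes, these were PDPR (distance 0.07), the small nucleolar RNA SNORA73 (0.42) and gga-mir-762 (0.43). For HDAC2, over 3 tables and 114 candidates, they were NKD1 (0.22), MED13 (0.23) and NAA15 (0.44), and for EPC1 they were CISD2 (0.37), C6orf62 (0.44) and ZNF207 (0.68). In the third table, the values of HDAC2 and EPC1 came from distal regions, at 70266 and -15412 bp. These distances are smaller than the counting intervals of the ratios.

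EPC2, the other Enhancer of Polycomb homologue, had 2 regions in ESC against PGC and 3 in ESC against SSC, all near its start on chromosome 7. The region across the start (34223963 to 34224395) had IP and input counts of 35 and 7 for ESC and 9 and 9 for PGC, a log2 ratio of 1.48 (-0.20 to 3.16). In the table against SSC, where it ended at 34224411, it was also an SSC peak, with 36 and 7 reads for ESC and 31 and 4 for SSC. Its ratio of ESC over SSC was -1.16 (-2.91 to 0.59), while EPC1 had 1.49 (-1.16 to 4.15) at its start, and the intervals overlap. The other EPC2 regions in that comparison had ratios above 0. They were 1.12 (-1.89 to 4.12) at 819 bp and 2.15 (-0.19 to 4.48) at -470 bp from the start. Over PGC, the region at 819 bp had 1.12 (-1.53 to 3.77). No listed region carried the symbol HDAC1, the closest paralog of HDAC2. HDAC3, another class I deacetylase gene named here after its values were seen, had -0.35 (-2.21 to 1.51) for ESC over PGC at 32493 bp from its start and -0.87 (-2.60 to 0.86) for ESC over SSC at 858 bp, neither called in ESC.

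Other genes of histone acetylation were taken from a list of 162 symbols in 8 roles, older symbols included, each with its region nearest the start. In ESC against PGC, 33 were listed and 15 (45.5%) were at least 2-fold higher in ESC, beside 53.1% of 2269 genes, and 6 (18.2%) in PGC, beside 20.3%. Their median log2 ratio was 0.84, and 1.16 over all genes. In ESC against SSC, 36 were listed, 10 (27.8%) higher in ESC beside 39.5% of 2592 genes and 13 (36.1%) higher in SSC beside 22.8%. These counts include genes with an input of 0 reads. With that input at 3 counts, NCOR1, among the 10, was at 0.95. TADA2B and MLLT1, among the 13, were at 0.19 and 0.48. The median there was -0.23, or 0.07 with inputs of 0 at 3 counts, and 0.59 over all genes. In PGC against SSC, 29 were listed, 7 (24.1%) higher in PGC beside 20.9% of 2064 genes and 11 (37.9%) higher in SSC beside 39.8%. Of these nearest regions, 18, 22 and 8 lay within 1 kb of the start, so many values stand for distal places.

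Among acetyltransferases, 4 of 25 were listed in ESC against PGC. Of these, 1 was at least 2-fold higher in ESC, beside 53.1% of all genes, and 1 in PGC, beside 20.3%. EP300, a coactivator acetyltransferase, had 127 IP and 20 input reads for ESC and 24 and 15 for PGC around its start, a log2 ratio of 1.28 (0.15 to 2.40). In ESC against SSC, 1 of 6 listed acetyltransferases was at least 2-fold higher in ESC, beside 39.5% of all genes, and 1 in SSC, beside 22.8%. The former was KAT6B, the catalytic subunit of a MOZ/MORF complex, with 1.89 (0.29 to 3.48) at a region -6769 bp from its start. Its region nearest the start in ESC against PGC, a different one at -4039 bp, was called in PGC and had -2.27 (-4.74 to 0.20). RBBP4, a histone chaperone close to the HAT1 partner RBBP7, was highest in PGC by the ratio of enrichments. At the same region 2717 bp past its start, it had -1.58 (-3.10 to -0.05) for ESC over PGC and 1.62 (0.19 to 3.06) for PGC over SSC. IP and input counts were 24 and 8 for PGC, 17 and 11 for ESC, and 17 and 19 for SSC. The inputs thus differed as well, and both ratios use the same PGC libraries. HAT1 had the opposite sign in ESC over PGC.

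In EPC1's own complex, 3 of 16 other NuA4 subunits were listed in each table. In ESC against PGC, 1 was at least 2-fold higher in ESC, beside 53.1% of all genes, and 0 in PGC, beside 20.3%. Against SSC, 1 was higher in ESC and 1 in SSC, beside 39.5% and 22.8%. In PGC against SSC, 1 was higher in PGC and 0 in SSC, beside 20.9% and 39.8%. None of those at least 2-fold apart had an interval that left out 0. SAGA and ATAC subunits had values on both sides: ATXN7 had 2.65 (0.11 to 5.20) for ESC over PGC with 37 IP and 2 input reads in ESC, while SUPT3H had -2.09 (-3.93 to -0.25) at a region 191197 bp away. For PGC over SSC, TADA2B had -2.83 (-5.36 to -0.31), with 8 IP and 7 input reads in PGC and 15 and 1 in SSC. Of the MOZ, HBO1, MSL and NSL subunits, 0 of 4 listed were 2-fold apart in ESC against PGC. Over all genes, 53.1% were 2-fold higher in ESC and 20.3% in PGC. In ESC against SSC, 0 of 3 were 2-fold higher in ESC, beside 39.5%, and 1 in SSC, beside 22.8%. In PGC against SSC, 2 of 2 were 2-fold higher in PGC, beside 20.9%. None of the intervals of those 2-fold apart left out 0.

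On the deacetylase side, 2 of 4 other deacetylases listed were at least 2-fold higher in ESC than in PGC, beside 53.1% of all genes. In PGC 1 was, beside 20.3%. Among those higher in ESC, the sirtuin gene SIRT7 had 1.95 (0.02 to 3.88). Of genes listed as subunits of the complexes that hold HDAC2 or its relatives, 5 of 9 were at least 2-fold higher in ESC than in PGC and 1 in PGC, beside the same shares. RBBP4 was placed with the HAT1 partners and is not in this count. The corepressor gene NCOR1 had 0 input reads in ESC. Its enrichment was 4.35-fold higher in ESC than in PGC with that input at 3 counts, and its log2 ratio as deposited was 3.71 (0.19 to 7.22). With the input at 3 counts the lower end of the interval was -0.53. Against SSC, 4 of 10 such subunits were at least 2-fold higher in ESC, beside 39.5% of all genes, and 5 in SSC, beside 22.8%. NCOR1, among the 4, was at 0.95 with its ESC input at 3 counts. Those higher in SSC included the NuRD subunit gene MTA1 at -2.05 (-3.91 to -0.19), 25400 bp from its start. Of the acetyl-lysine readers, 3 of 3 listed were at least 2-fold higher in ESC than in PGC, beside the 53.1% of all genes, and only the interval of BAZ2B left out 0, at 1.77 (0.11 to 3.44). Against SSC, 2 of 5 were at least 2-fold higher in ESC, beside 39.5% of all genes, and 2 in SSC, beside 22.8%. MLLT1, among those higher in SSC, had an SSC input of 0 reads and was at 0.48 with it at 3 counts. None of the intervals of those 2-fold apart left out 0. In PGC against SSC both listed readers were at least 2-fold higher in SSC, beside 39.8% of all genes. The bromodomain gene BRD2 was at -2.18 (-3.76 to -0.61) and TRIM24 at -2.68 (-5.15 to -0.21). The TRIM24 region, -17988 bp from its start, had 4 IP and 5 input reads in PGC and 15 and 2 in SSC.

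**Figure D5:**
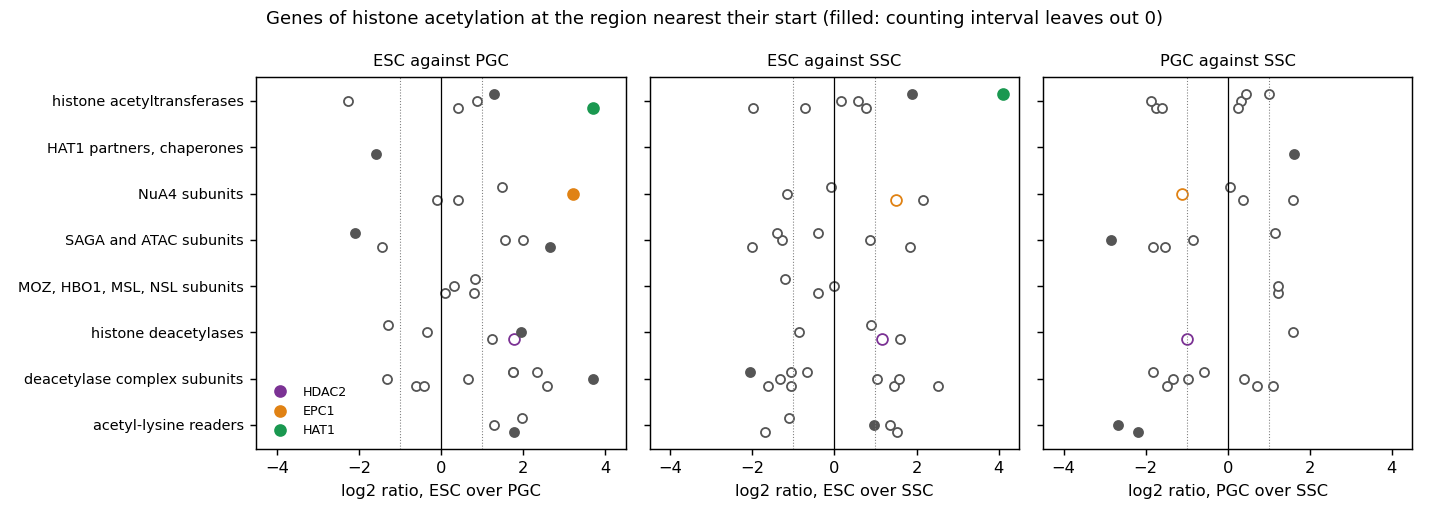
log2 ratio of enrichment at the region nearest the start for listed genes of histone acetylation, by role (rows) and comparison (panels); coloured points are HDAC2, EPC1 and HAT1, grey points the other genes, filled where the 95% counting interval leaves out 0. HAT1 at 3.71 and 4.12 lies farthest right among acetyltransferases in both ESC comparisons, and most other points are open. Both HAT1 values rest on an ESC input of 0 reads. By IP reads alone, which are not drawn here, they were 1.44 and 0.78.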

How the data were processed

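H3K4 methylation was measured by ChIP-seq in 3 chicken populations with 1 IP and 1 input library each. Per the submitters' processing notes, CASAVA 1.8, FastQC, BWA and MACS2 were used with galGal4; settings and the counting step are not given in the sources used here. Per the file headers, the authors' 3 tables hold read counts, RPM (count plus 1, per M reads of the library), fold enrichment as a ratio of IP to input RPM, a log2 ratio between populations, and the distance in bases from the closest start. RPM times the library total, less 1, returned every count within 0.00105 reads.

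Repeated rows of a region were collapsed. Ratios recomputed from the counts lay within 6.86e-06 of the deposited log2 values. Intervals are 95% delta-method intervals on the counts. Their coverage was tested over all regions together, on Poisson counts simulated around the observed counts plus 1 read. That does not test regions with very low input counts by themselves. An input of 0 in the population with higher enrichment was also set to 3 counts. Python 3.11.15, pandas 2.3.3, numpy 2.4.6, scipy 1.17.1 and matplotlib 3.10.9 were used. Median depth at listed regions was 11 to 23 reads in IP and 4 to 6 in input libraries.

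Members, lists and naming rule were chosen with earlier results of these data known. The rule named the 3 genes, HDAC1 and EPC2, and per role, table and direction up to 2 genes at least 2-fold apart whose interval left out 0, plus the 3 genes most like each member and the nearest listed neighbours; 1 result it named is not reported here. Marker lists were 7 stem cell, 7 germ cell, 5 spermatogonial, 10 somatic gonad and 5 fibroblast genes; of the fibroblast genes 4 were listed, with peaks of 1 in ESC, 2 in PGC and 3 in SSC. Alternatives varied the added reads, inputs, centring, call rule, depth minimum and the region standing for a gene. Gene order came from RefSeq (GRCg7b), where all 3 symbols matched.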

Additional observations from a re-analysis of the deposited data

How the results depend on the processing

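No paired analysis was possible because each group has 1 library, and for the same reason no library could be left out. Of 106 recomputed region ratios of the 3 genes, 104 stayed within the counting interval of the value reported, and no ratio of at least 2-fold changed sign. The exceptions were HAT1 (0.78) and the HDAC2 region 70571 bp from its start (0.89) for ESC over SSC, both by IP reads alone. Centring moved a ratio by at most 0.90, too little to leave any of these intervals, so this count is a weak check. In ESC over PGC, centring still took the intervals that left out 0 from 7 of 11 regions to 1, with no centred share over all regions computed. Of the sums over neighbouring regions, recomputed after seeing the data, the distal HDAC2 cluster moved beyond its interval, to 0.93 for ESC over PGC after centring on the median of all regions, which shifts log2 ratios by 0.90, 0.31 and -0.42 in the 3 tables. Depth limits the rest: the median counting standard error of a region's log2 ratio was between 1.03 and 1.06.

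Counts of regions of the 3 genes past 2-fold moved as follows, in settings added after seeing the data. In ESC over PGC, 9 became 3 after centring. In ESC over SSC, 7 became 4 with 5 reads added or after centring, and 3 at 3-fold or with the interval rule. In PGC against SSC, the 1 higher in PGC became 2 with 0.5 reads added or after centring and 0 by IP alone, at 3-fold or with the interval rule. The 2 higher in SSC became 1 by IP alone and 0 with 5 reads added, after centring, with the interval rule, at 3-fold or with at least 10 reads in each IP library.

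For the other acetylation genes, the 15 higher in ESC than PGC became 7 after centring or with at least 10 IP reads and 6 with the interval rule, and the 6 higher in PGC became 2 with the interval rule or at 3-fold and 0 within 1 kb of starts. Against SSC, the 10 higher in ESC became 5 with 5 reads added or at 3-fold and 1 with the interval rule. The 13 higher in SSC became 8 with 5 reads added, 3 by IP alone, 1 with the interval rule, 5 at 3-fold and 5 within 1 kb of starts. In PGC against SSC, the 7 higher in PGC became 3 with 5 reads added, 1 with the interval rule or at 3-fold, 2 with at least 10 IP reads and 0 within 1 kb. The 11 higher in SSC became 7 by IP alone, 3 with the interval rule or with at least 10 IP reads, and 6 within 1 kb.

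Over all regions, ESC higher than PGC (2325) became 1376 after centring, 1138 with the interval rule and 876 with at least 10 IP reads. PGC higher than ESC (1126) became 1888, 101 and 430 in the same settings and 384 at 3-fold. ESC higher than SSC (2051) became 1320 with 5 reads added, 699 with the interval rule, 1198 at 3-fold and 1106 with at least 10 IP reads. SSC higher than ESC (1534) became 1009 by IP alone, 282 with the interval rule, 717 at 3-fold and 824 with at least 10 IP reads. PGC higher than SSC (1023) became 500 with 5 reads added, 1611 after centring, 87 with the interval rule, 312 at 3-fold and 114 with at least 10 IP reads. SSC higher than PGC (1822) became 1198 with 5 reads added, 1016 by IP alone, 462 with the interval rule, 991 at 3-fold and 634 with at least 10 IP reads. Beyond the constructions of these rules, the cause was not tested.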

Other observations

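Within EPC1 itself, the table of PGC against SSC listed a region in intron 1 (chromosome 2, 14068295 to 14068560) that the authors' annotation assigns to the microRNA gga-mir-1768, whose start is closer. It was called in PGC, with 16 IP and 10 input reads there and 9 and 4 in SSC, an enrichment of 1.91 and 2.47. The authors' deposited table gives a log2 ratio of -0.37 for PGC over SSC, although the region was called in PGC and PGC had more IP reads. The SSC enrichment rests on 4 input reads. No counting interval was computed for this ratio. Its size is below the median counting standard error of a region's log2 ratio in this comparison, 1.03, so its direction is not resolved.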
